A study of Mus musculus with 34 samples.

Results

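The effect of Hdac1 loss that is common to mice without and with the 5XFAD transgenes was measured across the 20 hippocampal RNA libraries of the series, of 34 samples in all. The members were every hippocampal library, chosen by tissue and genotype alone. All mice carried the floxed Hdac1 alleles (Hdac1f/f). They fell into 4 groups: 4 control mice, 5 Hdac1 cKO mice that also carried Nestin-Cre, 6 5XFAD mice, and 5 compound transgenic mice that carried Nestin-Cre and 5XFAD. Labels gave the first pair of groups as 13 to 14 months old and the second pair as 13 months old. Nestin-Cre deletes Hdac1 in neural lineage cells, that is neurons and astrocytes, while microglia keep the gene. 5XFAD mice carry transgenes driven by the Thy1 promoter and develop amyloid plaques. No group carried Nestin-Cre without the floxed alleles, so the Cre transgene and the loss of Hdac1 cannot be told apart.

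HDAC1 is a histone deacetylase that removes acetyl groups from histone tails and other proteins. It has no DNA-binding domain and works within the Sin3, NuRD and CoREST corepressor complexes, where its close relative HDAC2 takes the same place. Loss of a corepressor enzyme is classically expected to raise transcription of bound genes, but HDAC1 also sits at active promoters. In brain, HDAC1 is known for its part in the repair of damaged DNA.

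The values were FPKM, that is fragment numbers scaled for transcript length and for the size of each library. An additive fit of log2(FPKM + 1) on Nestin-Cre and 5XFAD gave each gene 1 Hdac1 effect over all 20 mice, called the main effect below. The same difference was then taken within each background, as Hdac1 cKO against control and as compound against 5XFAD, which share no mice. The interaction term is the second difference minus the first. Of 23951 genes listed, 14389 had a mean of at least 0.5 FPKM and were tested. The main effect had a median standard error of 0.11 on the log2 scale, against 0.16 for each background alone and 0.23 for the interaction.

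Depth differed between libraries. Taken from the smallest steps of low FPKM values and set to 1 in control mouse 1, it ran from 0.75 in compound mouse 3 to 2.35 in Hdac1 cKO mouse 5. Its median was 1.27 in control, 1.79 in Hdac1 cKO, 1.67 in 5XFAD and 1.03 in compound mice. By median, the group with Nestin-Cre was thus the deeper one without 5XFAD and the shallower one with 5XFAD. The part of depth in the differences of low genes was not tested. Markers of hippocampal pyramidal and granule cells averaged between 3.91 and 4.40 log2(FPKM + 1) in all 20 mice, and none of the neuron markers was at 0 in any group. Thy1, whose promoter drives the 5XFAD transgenes, read 303 to 388 FPKM in mice without 5XFAD and 1563 to 2357 FPKM in mice with it. Libraries differed most in choroid plexus RNA. The mean log2(FPKM + 1) of the choroid plexus markers was 3.76 to 4.34 in control mice 2, 3 and 4 but 1.62 in control mouse 1, and it was 1.08 to 1.27 in compound mice 2 to 5 but 3.55 in compound mouse 1. Both libraries stood apart from their groups in the direction opposite to the group difference. Values without 1 or both of them are given beside the results for the counts of genes past the study thresholds by the main effect, in each background and in both. The same holds for the choroid plexus and cilia lists and for Ttr, Folr1 and Prelp.

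Hdac1 itself, a protein-coding gene on the minus strand of chromosome 4 (mm9, chr4:129193348-129219957), checked the labels. Its level was 6.42, 8.71, 10.7 and 5.91 FPKM in the 4 control mice and 3.00, 3.03, 2.62, 2.70 and 2.36 FPKM in the 5 Hdac1 cKO mice. On the 5XFAD background it was 9.33, 9.54, 6.60, 6.10, 9.64 and 8.15 FPKM without Nestin-Cre and 1.82, 2.52, 1.15, 1.86 and 2.24 FPKM in the compound mice. Every mouse with Nestin-Cre was below every mouse without it. The ratio of group means was 0.35 without 5XFAD and 0.23 with it. Hdac1 fell with a main effect of -1.47 ± 0.12 (SE) on the log2 scale, with an adjusted p of 4.64e-07 in limma. An exact permutation test over the 58212 arrangements of Nestin-Cre within the backgrounds gave p = 1.72e-05, two-sided, the smallest it can give. The interaction was -0.44, with an interval from -0.92 to 0.05 and an unadjusted p of 0.073. The remaining reads were not assigned to a cell type, and the sources used here do not say which exons the floxed allele removes.

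Of the 14389 genes, 2 passed an adjusted p of 0.05 for the main effect, or 0.0139%: Hdac1, which was lower, and Fkbp1b, which was higher. At an unadjusted p below 0.05, 713 genes were lower (4.96%) and 592 were higher (4.11%). By the thresholds of the study, which take genes differing 1.5-fold or more with an unadjusted p below 0.05, 150 genes were lower (1.04%) and 17 were higher (0.118%). The fold was taken here on the scale of log2(FPKM + 1), so a low gene had to change by more than 1.5-fold in FPKM to be counted. Without control mouse 1, 5 genes passed the adjusted threshold, and 188 were lower and 20 higher by the study thresholds. Without compound mouse 1 these counts were 2, 192 and 26. The count higher by the study thresholds reached 29 without compound mouse 3. In 4 genes the groups did not overlap in either background, with 1 of them lower (0.00695%) and 3 higher (0.0208%). They were Hdac1, Fkbp1b, Aqp4 and Ap3m1, and the last 2 were chosen after their values were seen.

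Fkbp1b encodes FKBP12.6, also called calstabin 2, an FK506-binding protein that binds ryanodine receptors and limits calcium leak from the endoplasmic reticulum. The gene lies on the minus strand of chromosome 12 (mm9, chr12:4839981-4848401). Control mice had 70.3, 72.8, 69.1 and 72.1 FPKM and Hdac1 cKO mice 98.7, 111, 108, 98.1 and 86.4 FPKM. 5XFAD mice had 64.3, 69.6, 77.7, 70.9, 63.7 and 69.0 FPKM, and compound mice 96.9, 84.7, 91.1, 95.2 and 106 FPKM. All 10 mice with Nestin-Cre were above all 10 mice without it. The means were 71.1 ± 1.69 (SD, n = 4) and 100.5 ± 9.73 (n = 5) without 5XFAD, and 69.2 ± 5.08 (n = 6) and 94.9 ± 7.95 (n = 5) with it. The ratio of means was 1.41 in the first background and 1.37 in the second. The main effect was 0.47 ± 0.06 (SE) log2, with an adjusted p of 2.00e-04, and the interaction was -0.04, with an interval from -0.28 to 0.20. The gene kept an adjusted p under 0.05 in all 20 fits that left out 1 mouse, the highest being 9.08e-04, and in all 11 other alternatives, the highest being 0.010 with the choroid plexus score as a covariate. Within 1 Mb on either side of Fkbp1b, 14 other genes were tested, with main effects between -0.27 and 0.20. None of them passed an adjusted p of 0.05 and 4 had an unadjusted p below 0.05, as had 9.07% of all genes tested. The 40 tested neighbours of Hdac1 ranged from -0.36 to 0.33, none past the adjusted threshold and 3 at an unadjusted p below 0.05.

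The start region of Fkbp1b is shown because it is the gene that rose by the main effect. The 300 bases run from 250 before the annotated start to 50 after it (RefSeq, GRCm38.p6, chr12:4841524-4841823, minus strand, a different build from that of the expression files), with matches to the GC box GGGCGG, searched on both strands, in capitals.
Fkbp1b: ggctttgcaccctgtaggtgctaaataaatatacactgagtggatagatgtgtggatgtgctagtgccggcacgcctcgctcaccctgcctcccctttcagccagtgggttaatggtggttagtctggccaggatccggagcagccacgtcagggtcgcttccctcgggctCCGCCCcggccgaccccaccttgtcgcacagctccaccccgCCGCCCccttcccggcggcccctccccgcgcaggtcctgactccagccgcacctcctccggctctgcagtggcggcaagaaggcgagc
This window held 2 matches, both on the opposite strand. Of all 32851 such windows in the table, 35.7% held at least 1 match. Of the 10575 tested genes matched to the table by symbol, 67.0% had a window with 1, against 48.6% of the 105 matched genes among the 150 that were lower and 3 of 11 among those that were higher. A match is a description of the letters and not a bound site.

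Aqp4 encodes aquaporin-4, the water channel of astrocyte endfeet. It was 24.0, 20.9, 23.2 and 23.6 FPKM in control mice and 32.2, 30.5, 27.1, 28.7 and 31.7 FPKM in Hdac1 cKO mice. On the 5XFAD background it was 22.5, 24.2, 28.8, 31.3, 27.1 and 42.6 FPKM without Nestin-Cre and 61.5, 52.6, 43.2, 79.2 and 45.3 FPKM with it. The groups were apart in both backgrounds, although the highest 5XFAD mouse was within 1 FPKM of the lowest compound mouse. The ratio of means was 1.31 without 5XFAD and 1.92 with it. The main effect was 0.67 ± 0.12 (SE) log2, with an adjusted p of 0.060, and the interaction was 0.54 ± 0.22 with an unadjusted p of 0.022. The adjusted p of the main effect ran from 0.020 to 0.15 when 1 mouse was left out, under 0.05 in 3 of 20 such fits. It was also under 0.05 in 4 of 11 other alternatives: 0.048 with quantile normalization, 0.038 with array weights, 0.032 for the mean of the effects in the 2 backgrounds and 0.018 without control mouse 1 and compound mouse 1.

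Ap3m1 encodes the medium subunit of the AP-3 adaptor complex, which sorts cargo to lysosomes and related organelles. Its 4 control values lay between 4.34 and 5.55 FPKM and its 5 Hdac1 cKO values between 5.92 and 8.06 FPKM. The 5XFAD values lay between 4.71 and 6.82 FPKM and the compound values between 6.96 and 8.63 FPKM. The margins between groups were thus small against the spread within them. The main effect was 0.37 ± 0.08 (SE) log2 with an adjusted p of 0.19, and the interaction was -0.04.

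**Figure D1:**
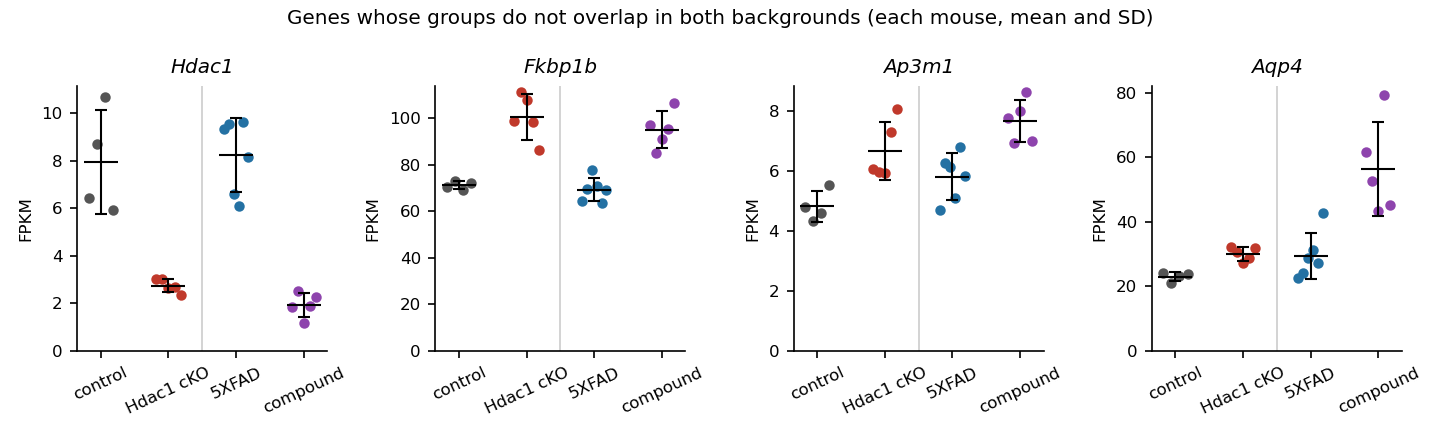
FPKM of Hdac1, Fkbp1b, Ap3m1 and Aqp4 in each mouse (points) with the mean and SD of each group, and a vertical line between the backgrounds. Hdac1 was 1.15 to 3.03 FPKM in all mice with Nestin-Cre and 5.91 to 10.7 FPKM in all others, and Fkbp1b was 84.7 to 111 FPKM against 63.7 to 77.7 FPKM.

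A further 3 genes had an adjusted p below 0.15 and were also named after their values were seen. Hopx encodes a small homeodomain protein that is found in astrocytes and in the radial glia-like stem cells of the dentate gyrus, and that does not bind DNA itself. It was 32.5 to 46.0 FPKM in control and 42.5 to 67.9 FPKM in Hdac1 cKO mice, which overlap, and 23.8 to 38.8 FPKM in 5XFAD and 37.4 to 67.9 FPKM in compound mice, which also overlap. Its main effect was 0.57 ± 0.11 (SE) log2 with an adjusted p of 0.12. Prelp encodes a leucine-rich repeat proteoglycan of connective tissue. Its levels were 6.41 FPKM in control mouse 1 but 12.9 to 17.3 FPKM in the other control mice, against 5.80 to 7.20 FPKM in Hdac1 cKO mice. In the 5XFAD background they were 9.38 to 17.3 FPKM against 6.61 to 9.75 FPKM. The main effect of Prelp was -0.67 ± 0.13 log2 with an adjusted p of 0.12, which was 0.0025 without control mouse 1 and 0.60 with the choroid plexus score as a covariate, where the effect was -0.41. Arhgap18, which encodes a GTPase-activating protein, was 2.07 to 5.02 FPKM in control, 1.01 to 1.59 FPKM in Hdac1 cKO, 1.87 to 2.80 FPKM in 5XFAD and 0.75 to 2.29 FPKM in compound mice. Its main effect was -0.69 ± 0.14 log2 with an adjusted p of 0.12, and the unadjusted p of its interaction was 0.029.

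The sign of the Hdac1 effect was the same in both backgrounds for 7100 of 14389 genes, or 49.3%, of which 3570 were lower and 3530 higher in both. Across genes, which are not independent replicates, the effects in the 2 backgrounds had a Pearson's r of 0.10 and a Spearman coefficient of 0.017. Without compound mouse 1 the share was 51.9% and Pearson's r 0.17. The share with the same sign was 51.4% among genes with a mean of 0.5 to 1 FPKM and 47.6% among those of 30 FPKM and over. Pearson's r was 0.063 over the 13854 genes outside every gene list described below. Of genes with an unadjusted p below 0.05 in both backgrounds, 66 had the same sign and 52 opposite signs.

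Within the backgrounds, the study thresholds took 398 genes lower (2.77%) and 70 higher (0.486%) in Hdac1 cKO against control mice, and 81 lower (0.563%) and 94 higher (0.653%) in compound against 5XFAD mice. Without compound mouse 1, 150 genes were lower and 97 higher in compound against 5XFAD mice. Without control mouse 1, 558 genes were lower and 92 higher in Hdac1 cKO against control mice. The genes past the thresholds in both backgrounds in 1 direction numbered 14, or 0.0973% of those tested. The 12 that were lower made up 3.02% of the first list and 14.8% of the second, and the 2 that were higher made up 2.86% and 2.13%. These numbers rested on compound mouse 1. Without it, 67 genes passed in both backgrounds (0.466% of 14383 tested), and the 65 that were lower made up 16.3% of the first list and 43.3% of the second. Of those 65, 18 were choroid plexus markers and 4 motile cilia markers, against 0 and 2 of the 12. The count was 15 without control mouse 1. The 398 genes had a median of -0.88 log2 in the first background and -0.13 in the second, where 62.8% were lower, against 50.0% of all genes tested. The 70 genes had a median of 0.67 and then -0.10, with 35.7% higher in the 5XFAD background. The 81 genes had a median of -0.76 in the 5XFAD background and -0.25 in the other, with 76.5% lower there, against 49.8% of all genes. The 94 genes were higher in the other background in 47 cases. Each of these lists was chosen by its effect in its own background, so a smaller median in the other is expected in part from the choice alone.

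Of the 150 genes that were lower by the main effect, 123 also passed the thresholds in Hdac1 cKO against control and 30 in compound against 5XFAD mice, 12 of them in both. In 123 of the 150 the difference was larger without 5XFAD. Their medians were -1.27 and -0.62 log2, and 146 had the same sign in both. The genes were chosen by the fit over these same mice, so that agreement is largely set by the choice and is not separate evidence. The medians and counts of the 150 genes are over all mice and are not given without compound mouse 1, which moved the counts in the 5XFAD background as stated above. Of the 17 higher genes, 6 passed in the first background and 11 in the second. A gene could thus enter the list through 1 background alone.

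**Figure D2:**
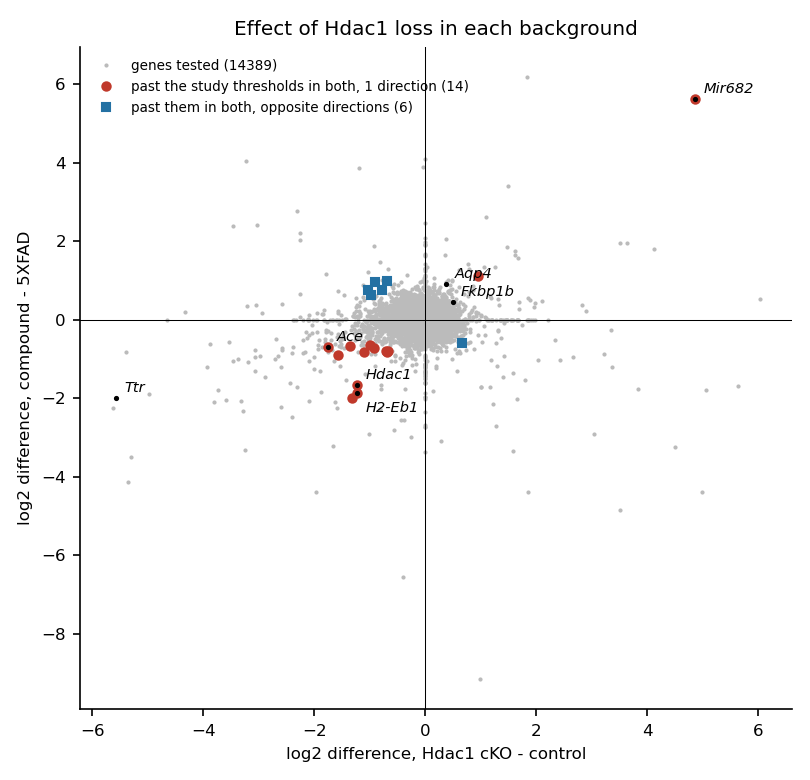
Each point is 1 of 14389 genes, with its log2 difference between Hdac1 cKO and control mice on the horizontal axis and between compound and 5XFAD mice on the vertical axis. The 14 genes past the study thresholds in both backgrounds in 1 direction and the 6 with opposite directions are marked, and most genes lie around 0 on both axes, with a Pearson's r of 0.10 across genes.

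The 12 genes lower in both backgrounds, listed here after their values were seen, were Hdac1, Ace, Asgr1, Dnali1, H2-Aa, H2-Eb1, Slc22a18, Slc39a4, Slc6a13, Msx1os, 1700016K19Rik and 4930593C16Rik. Apart from Hdac1, their adjusted p for the main effect ran from 0.25 in Dnali1 to 0.30 in 4930593C16Rik. Dnali1 and 1700016K19Rik are on the motile cilia list and Slc6a13 on the meningeal list, and H2-Aa and H2-Eb1 are on the interferon and antigen presentation list.

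Of the 12 genes, 3 encode solute carriers. Slc6a13, the GABA and taurine transporter GAT2 of leptomeninges, had mean levels of 1.31 ± 0.77 (SD, n = 4) FPKM in control, 0.34 ± 0.13 (n = 5) in Hdac1 cKO, 1.73 ± 1.24 (n = 6) in 5XFAD and 0.44 ± 0.325 (n = 5) in compound mice. Slc22a18, an organic cation transporter-like protein, had 1.75, 0.35, 1.46 and 0.47 FPKM in the same order, with an Hdac1 cKO mean of 0.21 FPKM without Hdac1 cKO mouse 4. Slc39a4 is the zinc importer ZIP4, mutated in the zinc deficiency acrodermatitis enteropathica, and had 3.15, 0.35, 1.49 and 0.48 FPKM, with a control mean of 2.10 FPKM without control mouse 3. In control mouse 1, with little choroid plexus RNA, Slc39a4 was 0.30 and Slc22a18 0.24 FPKM, both within the Hdac1 cKO range, whereas Slc6a13 was 1.73 FPKM there, above it. In control mouse 2, Slc6a13 was 0.216 FPKM, within the Hdac1 cKO range. Ace encodes the angiotensin-converting enzyme, which the choroid plexus expresses strongly. Control mouse 1 had 0.419 FPKM, against 4.14 to 8.23 FPKM in control mice 2 to 4, and the Hdac1 cKO mice had 0.209 to 0.585 FPKM. Levels were 0.679 to 3.51 FPKM in 5XFAD mice and 0.139 to 1.65 FPKM in compound mice. These levels are near or below 1 FPKM in many mice, so single reads weigh in them.

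H2-Aa, H2-Ab1 and H2-Eb1 encode chains of the class II major histocompatibility complex, which presents peptides to CD4+ T cells and which microglia, border macrophages and dendritic cells make. H2-Eb1 (mm9, chr17:34442828-34453144) was 3.14, 1.62, 12.1 and 3.42 FPKM in control mice and 1.25, 1.43, 1.52, 1.01 and 0.62 FPKM in Hdac1 cKO mice. It was 28.9, 10.5, 0.58, 9.40, 4.97 and 9.26 FPKM in 5XFAD mice and 1.98, 2.02, 1.11, 1.40 and 0.39 FPKM in compound mice. The groups did not overlap without 5XFAD, and with it only 5XFAD mouse 3 fell among the compound mice. The main effect was -1.58 ± 0.40 (SE) log2 with an adjusted p of 0.29, between 0.060 and 0.44 when 1 mouse was left out.

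H2-Aa was 2.26 to 16.1 FPKM in control, 0.19 to 3.16 FPKM in Hdac1 cKO, 2.30 to 69.1 FPKM in 5XFAD and 1.96 to 6.01 FPKM in compound mice. H2-Ab1 had means of 49.3 ± 47.6 (SD, n = 6) FPKM in 5XFAD and 6.23 ± 1.45 (n = 5) FPKM in compound mice, a ratio of 0.13. Without 5XFAD mouse 1 that ratio was 0.20. In mice without the 5XFAD transgenes the ratio of H2-Ab1 was 0.29, with an unadjusted p of 0.25 in limma, and it was 0.75 without control mouse 3. The same mouse moved the ratio of H2-Eb1 from 0.23 to 0.43 and that of H2-Aa from 0.27 to 0.50. In each of the 3 genes, 5XFAD mouse 1 was the highest of its group and 5XFAD mouse 3 the lowest. The share of cells of a type and the RNA per cell cannot be told apart in bulk tissue. Over the whole list of interferon and antigen presentation genes, 5 of 27 members tested were lower by the main effect at an unadjusted p below 0.05 and 1 was higher, where 4.96% and 4.11% of all genes tested were, and 6 had an interaction p below 0.05, all positive, where 8.97% of all genes had one. Tap1, the peptide transporter for class I, had a main effect of -0.51 ± 0.17 log2.

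The 2 genes higher in both backgrounds, also listed after their values were seen, were 1500015L24Rik and Mir682. The first, an uncharacterised gene, had means of 0.83, 2.57, 1.25 and 3.51 FPKM in control, Hdac1 cKO, 5XFAD and compound mice. For 1500015L24Rik, the control mean was 0.50 FPKM without control mouse 4 and the 5XFAD mean 0.80 FPKM without 5XFAD mouse 3, which moved the ratios of means from 3.09 to 5.11 and from 2.82 to 4.38. The listed value of Mir682 is that of its hairpin gene (mm9, chr13:75782494-75782589) in a library of 3′ ends, not of the mature microRNA, which is printed to show what the gene encodes, with its seed (bases 2 to 8) in capitals.
mmu-miR-682: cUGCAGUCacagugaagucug
The hairpin gene was listed at 161 FPKM in control mouse 1 and at 0 in the other 3 control mice, and at 68.6 to 173 FPKM in Hdac1 cKO mice. It was listed at 0 in 4 of 6 5XFAD mice, with 105 and 72.8 FPKM in the others, and at 72.0 to 642 FPKM in compound mice. The main effect of 5.28 ± 1.12 log2 had an adjusted p of 0.25, and 0.030 without control mouse 1. The hairpin of 96 bases shares an identical stretch of 48 bases with the transcript of Rpl37a, which encodes a ribosomal protein and was read at 2394 to 3309 FPKM. Reads of Rpl37a and Mir682 could not be separated over that stretch, so this value is uncertain. The main effect of Rpl37a was 0.10 ± 0.06 log2 with an adjusted p of 0.67. Small RNA genes made up 6 of the 150 lower and 2 of the 17 higher genes, and 265 of 14389 tested.

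Choroid plexus markers made up the largest group of the genes past the thresholds. All 28 members tested were lower in both backgrounds, 26 had an unadjusted p below 0.05 for the main effect, where 4.96% of all genes tested were lower, and 25 were among the 150 lower genes, but none passed an adjusted p of 0.05. Their median was -2.20 log2 without 5XFAD, -0.70 with it and -1.44 by the main effect, against 0.00 for all genes tested. Without control mouse 1 and compound mouse 1 these medians were -2.88, -1.21 and -1.89, and 23 members had an interaction p below 0.05, against 4 over all mice and 8.97% of all genes tested. That count was 25 without control mouse 1 alone and 0 without compound mouse 1 alone. Folr1, the folate receptor of choroid plexus epithelium, was 66.7 FPKM on average in control, 3.04 in Hdac1 cKO, 22.8 in 5XFAD and 9.42 in compound mice. The compound mean rested on compound mouse 1, with 44.3 FPKM, and was 0.70 FPKM without it. The Hdac1 cKO mean of Folr1 was 1.31 FPKM without Hdac1 cKO mouse 5. The main effect of Folr1 was -2.86 log2 over all mice and -3.80 without control mouse 1 and compound mouse 1. Ttr, the thyroid hormone carrier of cerebrospinal fluid, was 576 FPKM in control mouse 1, while control mice 2 to 4 had 12903 to 20146 FPKM. It was 56.5 to 1608 FPKM in Hdac1 cKO, 53.8 to 7892 FPKM in 5XFAD and 58.9 to 265 FPKM in compound mice other than mouse 1, which had 13910 FPKM. The summed level of the choroid plexus list was 702 to 21869 FPKM in control, 118 to 1767 FPKM in Hdac1 cKO, 126 to 8517 FPKM in 5XFAD and 126 to 14725 FPKM in compound mice, and 1 marker was listed at 0 in all Hdac1 cKO mice. The part of choroid plexus RNA in the differences of other genes was examined only through the alternatives given below. Of ependymal and motile cilia markers, 13 of 30 tested were lower at an unadjusted p below 0.05 (4.96% of all genes), with medians of -0.86 and -0.01 in the 2 backgrounds, and 12 had an interaction p below 0.05, all positive (8.97% of all genes). Without control mouse 1 and compound mouse 1, 18 of 29 were lower, with medians of -1.08 and -0.24. Tekt1, a protein of ciliary microtubules, had means of 8.32, 1.79, 5.02 and 4.40 FPKM in the 4 groups, and an interaction of 1.47 ± 0.44 log2.

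**Figure D3:**
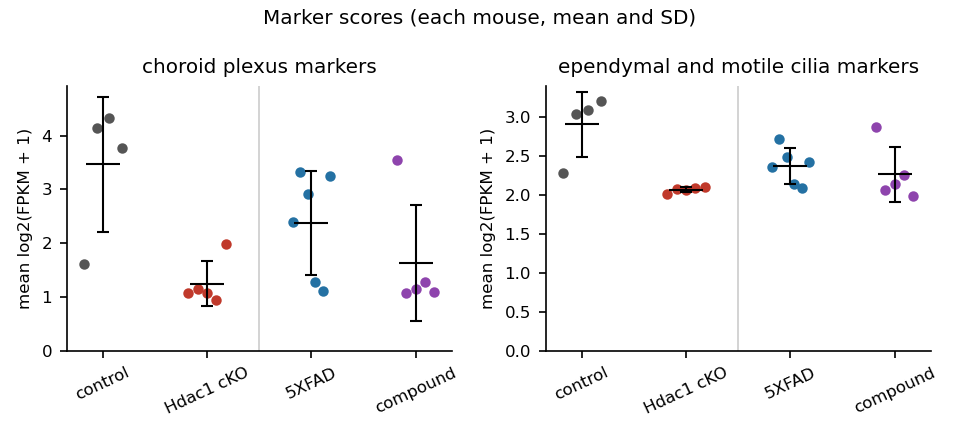
Mean log2(FPKM + 1) of the choroid plexus markers and of the ependymal and motile cilia markers in each mouse (points), with the mean and SD of each group. Control mouse 1 at 1.62 and compound mouse 1 at 3.55 stand apart in the choroid plexus score, and both stand apart in the same way in the cilia score.

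The call list depended on these libraries. Without control mouse 1 and compound mouse 1 together, an alternative chosen after seeing the data, 105 genes passed an adjusted p of 0.05, 98 of them lower, and 23 of the 105 were choroid plexus markers and 7 motile cilia markers. The pair was picked for its choroid plexus RNA, so this count does not stand as separate evidence. With the choroid plexus score as a covariate, only Hdac1 and Fkbp1b passed, and 64 genes were lower and 64 higher at the study thresholds in place of 150 and 17. Of those, 24 of the lower and 11 of the higher genes were in the lists without the covariate. Of 111 main effects followed through the alternatives, 46 shrank by more than 1.5 times with it or turned sign and 4 grew by more than 1.5 times. Choroid plexus markers among the 111 are part of the score, so their shrinkage was fixed in advance. The score itself differed by genotype, with medians of 3.95 in control, 1.07 in Hdac1 cKO, 2.65 in 5XFAD and 1.15 in compound mice. The covariate thus takes up part of the genotype difference, and a smaller effect with it cannot tell the 2 apart. Apart from Hdac1, none of the genes in the following examples was past the adjusted threshold before or after. Among the genes lower in both backgrounds, Ace went from -1.17 to -0.30 log2, Slc39a4 from -0.97 to -0.24, Msx1os from -1.20 to -0.45, 1700016K19Rik from -0.95 to -0.54 and Slc22a18 from -0.81 to -0.50. The others of that list moved less, H2-Aa from -1.69 to -1.81, H2-Eb1 from -1.58 to -1.57, Dnali1 from -0.81 to -0.56, Asgr1 from -0.77 to -0.61, Slc6a13 from -0.76 to -0.67 and 4930593C16Rik from -0.74 to -0.71, and Hdac1 stayed at -1.47. Among marker genes, Tekt1 went from -0.94 to -0.34, Ptgds from -0.71 to -0.28, Bmp7 from -0.68 to -0.33 and Slco1c1 from -0.63 to -0.24. The chaperones Hspa5, Hsp90b1 and Hspb1 went from -0.34 to -0.084, from -0.34 to -0.16 and from -0.66 to -0.30. Of those that were higher, Nr4a1 went from 0.52 to 0.28, Dkk3 from 0.29 to 0.19, Sap130 from 0.29 to 0.17, Tubb3 from 0.24 to 0.14 and Atf4 from 0.21 to 0.11.

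Meningeal and fibroblast markers had a median of -0.34 without and -0.30 with 5XFAD, and 6 of 15 were lower at an unadjusted p below 0.05, as were 4.96% of all genes tested. Without control mouse 1 and compound mouse 1 these medians were -0.51 and -0.49. They included Bmp7, a secreted growth factor, at -0.68 ± 0.17 log2 and Ptgds, the prostaglandin D synthase, at -0.71 ± 0.20. Endothelial markers had medians of -0.15 and -0.13, with 6 of 19 lower, among them Slco1c1, a thyroxine transporter shared with choroid plexus, at -0.63 ± 0.15, and the VEGF receptors Flt1 at -0.26 ± 0.08 and Kdr at -0.37 ± 0.13. Thalamus markers had medians of -0.36 and -0.20, with 4 of 16 lower. The first median was -0.55, with 6 of 16 lower, when control mouse 1 was left out. The summed level of thalamus markers reached 200.3 FPKM in control and 241.3 FPKM in 5XFAD mice, against at most 87.5 FPKM in Hdac1 cKO and 99.4 FPKM in compound mice. The medians were closer, at 102.1, 85.1, 92.1 and 82.9 FPKM in control, Hdac1 cKO, 5XFAD and compound mice. Prkcd, a protein kinase C isoform that thalamic relay neurons express, was 13.8 and 7.55 FPKM on average without 5XFAD and 12.7 and 7.56 FPKM with it. The part of thalamic RNA in other differences was not tested.

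Microglia markers were the list with the most members higher: 7 of 20 at an unadjusted p below 0.05 and none lower, where 4.11% of all genes tested were higher and 4.96% lower, with medians of 0.13 without and 0.31 with 5XFAD. P2ry12, the purinergic receptor of homeostatic microglia, was 15.5 ± 1.95 (SD, n = 4) FPKM in control and 18.3 ± 2.62 (n = 5) in Hdac1 cKO mice, and 16.7 ± 3.13 (n = 6) in 5XFAD and 23.8 ± 4.04 (n = 5) in compound mice. Tyrobp, the signalling adaptor of TREM2, was 139, 156, 546 and 850 FPKM on average in the same order. Its main effect was 0.41 ± 0.14 log2 with an adjusted p of 0.34. Ccl4, a chemokine, was listed at 0 in 3 control mice and at 2.74 FPKM in the other, had 0.36 to 2.23 FPKM in Hdac1 cKO mice and 6.75 to 17.4 FPKM in 5XFAD mice, and had 21.1 to 39.2 FPKM in compound mice. The last 2 groups did not overlap. Disease-associated microglia genes had medians of -0.15 and 0.30, with 3 of 30 higher and 1 lower, and 9 had an interaction p below 0.05, all positive, where 8.97% of all genes tested had one. The count higher was 6 of 30 without control mouse 1.

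Astrocyte markers had medians of 0.05 in both backgrounds, with 3 of 20 higher, where 4.11% of all genes tested were: Aqp4, Gja1, the gap junction protein connexin 43, at 0.24 ± 0.09, and Ntsr2, a neurotensin receptor, at 0.23 ± 0.09 log2. Gfap, the intermediate filament of reactive astrocytes, was 25.1 ± 1.40 (SD, n = 4) FPKM in control and 27.7 ± 3.76 (n = 5) in Hdac1 cKO mice, and 97.5 ± 15.4 (n = 6) in 5XFAD and 115 ± 36.4 (n = 5) in compound mice. Its main effect was 0.17, with an interval from -0.05 to 0.39, and was 0.078 without compound mouse 4, which had 176 FPKM. Hippocampal pyramidal and granule cell markers had 2 of 20 higher and 1 lower. Dkk3, a secreted protein of pyramidal neurons, was 75.4 to 84.1 FPKM in control and 93.8 to 107 FPKM in Hdac1 cKO mice, and 63.5 to 93.5 FPKM in 5XFAD and 84.4 to 113 FPKM in compound mice. Only the first pair of groups was apart. Neuron markers had 2 of 20 higher, Tubb3 at 0.24 ± 0.09 and Snap25 at 0.14 ± 0.06 log2, and 1 of 20 without compound mouse 1. These counts of 1 or 2 of 20 are near the background of 4.11%. Oligodendrocyte and oligodendrocyte precursor markers had no member at an unadjusted p below 0.05 among 19 and 12 tested.

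**Figure D4:**
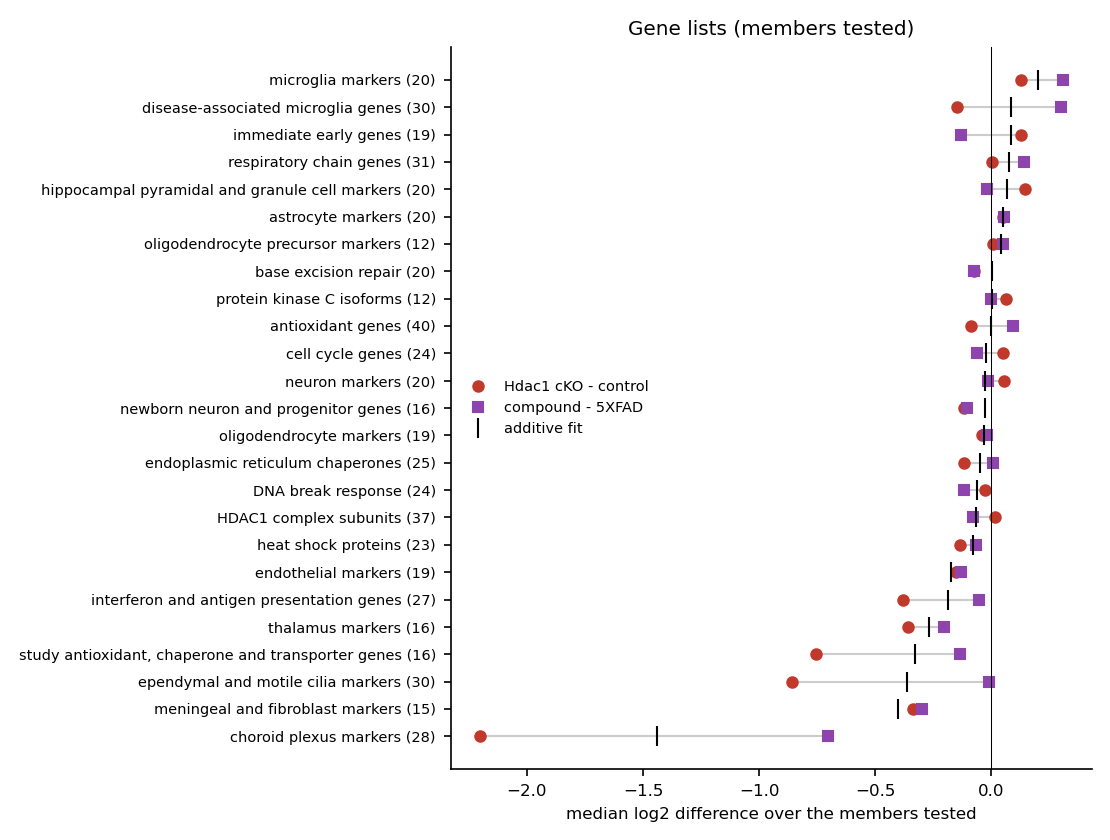
Median log2 difference over the tested members of each of 25 gene lists (number tested in parentheses), for Hdac1 cKO against control (circles), compound against 5XFAD (squares) and the main effect (bars). Choroid plexus markers lie lowest in both, at -2.20 and -0.70, and most other lists lie within 0.4 of 0.

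Subunits of HDAC1-containing complexes moved little beside Hdac1. Of 37 tested, Hdac1 alone passed the adjusted threshold, and at an unadjusted p below 0.05 4 were lower, Hdac1 included, and 1 was higher, where 4.96% and 4.11% of all genes tested were. The count lower was 2 without control mouse 1. Sin3a, the scaffold of the Sin3 complex, was at -0.25 ± 0.10 log2, Mier1 at -0.21 ± 0.09 and Sap130 at 0.29 ± 0.11. Hdac2, the paralogue of Hdac1, had a ratio of means of 0.87 without 5XFAD and 0.91 with it. Its main effect was -0.16, with an interval from -0.40 to 0.08, so that an increase of more than 0.08 log2 lay outside the interval.

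Base excision repair genes remove oxidised and other damaged bases. Of 20 tested, 3 were lower at an unadjusted p below 0.05, where 4.96% of all genes tested were lower, and none was higher, with medians of -0.07 in both backgrounds and 0.0025 for the main effect. Nthl1, a glycosylase for oxidised pyrimidines, was at -0.57 ± 0.16 log2, Apex1, the abasic site endonuclease, at -0.52 ± 0.20 and Ung, the uracil glycosylase, at -0.45 ± 0.18. Nthl1 had an adjusted p of 0.29. Ogg1, which removes 8-oxoguanine, was below the filter. It had 0.22 to 1.15 FPKM in control, 0.30 to 0.61 FPKM in Hdac1 cKO, 0 to 0.75 FPKM in 5XFAD and 0 to 0.61 FPKM in compound mice, which all overlap. Of 24 DNA break response genes 2 were lower and none higher.

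The counts of stress and metabolic genes that follow are at an unadjusted p below 0.05, where 4.96% of all genes tested were lower, 4.11% were higher and 8.97% had an interaction, so that 1 or 2 members of a list are near the background. Endoplasmic reticulum chaperones had 4 of 25 lower and 2 higher, the latter 1 without compound mouse 1, with Hsp90b1, the chaperone GRP94, at -0.34 ± 0.10 log2 and Hspa5, the chaperone BiP, at -0.34 ± 0.13. The difference in Hspa5 was -0.59 without 5XFAD and -0.13 with it. Atf4, a transcription factor of the stress response, was at 0.20 and 0.22 in the 2 backgrounds. Heat shock proteins had 2 of 23 lower, among them Hspb1 at -0.66 ± 0.19. Antioxidant genes had 2 of 40 lower and 2 higher, Cat, which encodes catalase, and Nfe2l2, which encodes the regulator NRF2, at -0.34 ± 0.11 and -0.32 ± 0.14, and Gsr, glutathione reductase, and Mgst3 at 0.26 ± 0.10 and 0.24 ± 0.10. Without compound mouse 1, 5 of the 40 were lower. An interaction p below 0.05, positive in each case, was found in 8 of the 40. Of the 16 antioxidant, chaperone and transporter genes that the study chose on these samples, 8 were lower and none higher, with medians of -0.75 and -0.14, which is not independent evidence of their direction. Some of them are also on other lists, with Kl, Slc4a5 and Slc13a4 on the choroid plexus list and Hspb1 on the heat shock list. Respiratory chain genes had 1 of 31 higher and none lower, and cell cycle genes 1 of 24 higher and 2 lower. Protein kinase C isoforms had 1 of 12 lower, and newborn neuron and progenitor genes 1 of 16 in each direction. Without control mouse 1, 2 respiratory chain genes were higher, 0 cell cycle genes were higher and 1 was lower. In the same setting, and also without compound mouse 1, 2 protein kinase C isoforms were lower. Immediate early genes had 2 of 19 higher, and 1 without compound mouse 1. Their medians were 0.13 without and -0.13 with 5XFAD, and 4 of the 19 had an interaction p below 0.05, all negative. Nr4a1, an orphan nuclear receptor induced by activity, had means of 2.74 and 6.49 FPKM without 5XFAD and 3.19 and 3.62 FPKM with it.

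The interaction asked which genes answered Hdac1 loss differently with 5XFAD. No gene passed an adjusted p of 0.05 in limma, the smallest being 0.23, and 1290 genes had an unadjusted p below 0.05, or 8.97%. The genes named below are those of smallest p in each direction, all short of the adjusted threshold. Cd63, a tetraspanin of late endosomes and exosomes, was 305, 432, 454 and 357 FPKM in control mice and 192 to 262 FPKM in Hdac1 cKO mice. It was 313, 344, 515, 293, 300 and 339 FPKM in 5XFAD mice and 609, 488, 406, 518 and 327 FPKM in compound mice. The groups were apart without 5XFAD, with Hdac1 cKO mice lower, and overlapped with it, with compound mice higher on average. The interaction was 1.25 ± 0.23 (SE) log2 with an adjusted p of 0.23, between 0.017 and 0.45 when 1 mouse was left out. It was under 0.05 in 2 such fits, without 5XFAD mouse 3 and without compound mouse 5. Katna1, the catalytic subunit of the microtubule-severing enzyme katanin, had ratios of means of 0.63 without and 1.5 with 5XFAD, and Smim11, which encodes a small membrane protein, 0.78 and 1.21.

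In the other direction were Hrk, a BH3-only activator of apoptosis, Numbl, an endocytic adaptor related to Numb, and Sptbn4, the spectrin of axon initial segments. Hrk was 4.63 to 5.99 FPKM in control and 6.67 to 9.23 FPKM in Hdac1 cKO mice, and 7.55 to 9.36 FPKM in 5XFAD and 4.86 to 8.81 FPKM in compound mice. Its interaction was -0.87 ± 0.19 log2, that of Numbl -0.87 ± 0.19 and that of Sptbn4 -0.86 ± 0.19, each with an adjusted p of 0.30. In all 3 the 5XFAD mean was near that of Hdac1 cKO mice and the compound mean nearer to control.

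In all, 6 genes passed the study thresholds in both backgrounds with opposite signs. Those of smallest interaction p were 2810049E08Rik, 4930455C13Rik, Sox18 and Apoc1. Apoc1, an apolipoprotein that microglia and astrocytes make, was 38.9 ± 4.98 (SD, n = 4) FPKM in control, 23.9 ± 10.6 (n = 5) in Hdac1 cKO, 24.4 ± 5.78 (n = 6) in 5XFAD and 42.4 ± 12.2 (n = 5) in compound mice. Sox18, a transcription factor of endothelium, went the other way, with 0.95, 2.07, 1.86 and 0.89 FPKM on average. The interaction was 1.55 ± 0.39 log2 for Apoc1 and -1.25 ± 0.31 for Sox18, each with an adjusted p of 0.30.

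**Figure D5:**
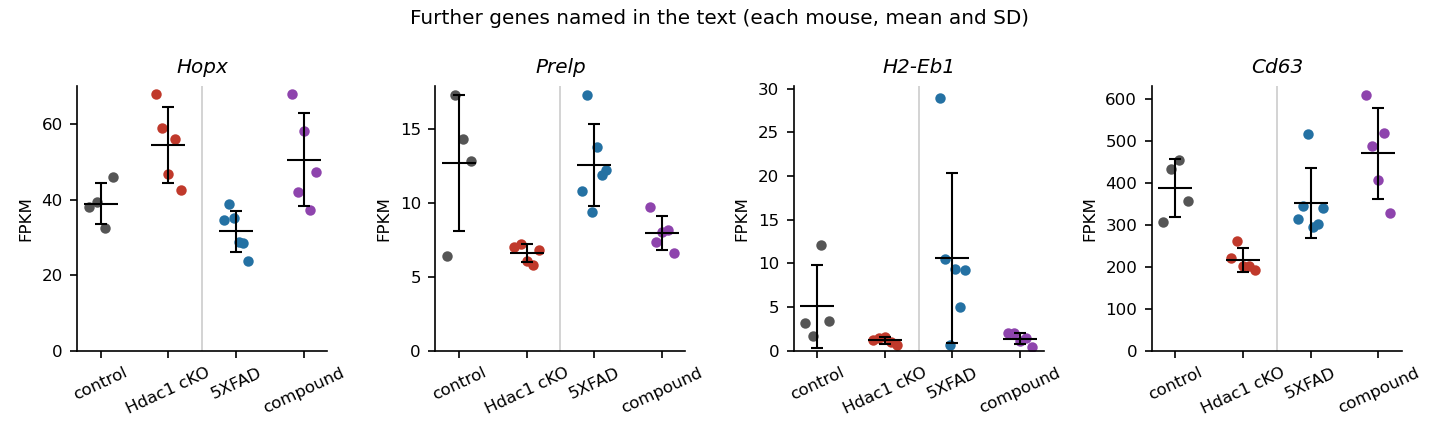
FPKM of Hopx, Prelp, H2-Eb1 and Cd63 in each mouse (points) with the mean and SD of each group. H2-Eb1 was at most 2.02 FPKM in every mouse with Nestin-Cre and up to 28.9 FPKM in 5XFAD mice, and Cd63 was lower in Hdac1 cKO than in control mice but not lower in compound than in 5XFAD mice.

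A further set of 7 libraries allowed the same contrast in other tissue, GFAP+ nuclei sorted from cortex of 3 control and 4 Hdac1 cKO mice without 5XFAD. Their values were made with another library kit, so only directions were set beside the hippocampal ones. In limma, 2 of 15070 genes tested passed an adjusted p of 0.05, both higher, and 202 were lower (1.34%) and 187 higher (1.24%) by the study thresholds. Hdac1 was 14.5, 9.91 and 22.3 FPKM in control and 9.71, 11.5, 5.80 and 8.74 FPKM in cKO nuclei, which overlap, a difference of -0.70 ± 0.28 (SE) log2. Fkbp1b was 11.4, 6.37 and 5.41 FPKM in control and 7.37, 5.06, 8.47 and 4.68 FPKM in cKO nuclei, a difference of -0.21 ± 0.28, opposite in sign to that in hippocampus. Aqp4 was 115, 75.5 and 61.3 FPKM in control and 121, 104, 127 and 118 FPKM in cKO nuclei, a difference of 0.53 ± 0.20. Hopx was 99.3, 84.9 and 61.6 FPKM in control and 152, 119, 140 and 143 FPKM in cKO nuclei, which did not overlap, as was so for 2.97% of genes in that direction. Its difference was 0.77 ± 0.18, with an adjusted p of 0.98.

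Of the 150 genes lower by the main effect, 116 could be tested in the nuclei and 55 were lower there, or 47.4%, against 51.0% of all genes. Of the 116, 4 passed the study thresholds in that direction, as did 1.34% of all genes tested there. Some genes described above as lower in hippocampus were higher in cKO nuclei. They included Ttr at 2.89 ± 1.11 (SE) log2, Folr1 at 1.04 ± 0.27, Tekt1 at 0.64 ± 0.21 and Dnali1 at 0.65 ± 0.27, each with an adjusted p of 0.98 in limma. Of the 17 higher genes, 6 of 9 tested were higher in the nuclei and none passed.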

How the data were processed

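Total RNA of hippocampus was made into 3′ digital gene expression libraries by the study. The authors aligned reads with TopHat2 and deposited FPKM values per gene from Cufflinks 2.0.0 with the UCSC annotation of mm9. Dividing by transcript length does not suit 3′ tags, so levels were compared between mice and not between genes. Read counts were not used here. GFAP+ nuclei were profiled with SMART-Seq v4.

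Values were analysed as log2(FPKM + 1) in limma 3.58.1 (R 4.3.3), with intensity trend and robust moderation, for genes whose mean over the 20 hippocampal libraries reached 0.5 FPKM. P-values were adjusted by Benjamini and Hochberg over all genes tested. Fold changes understate those of low genes because of the pseudocount. The scripts were tested on simulated data. Ages, genotypes and replicate numbers came from the labels, which do not say whether mice were littermates. The series' 6 ChIP samples and 1 sample of control nuclei were not analysed here.

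The comparison, gene lists and thresholds were chosen with earlier results of these data known. Genes were named by rule: Hdac1, Hdac2, Ogg1, Gfap and Thy1, up to 12 in each direction past the adjusted threshold, the 3 smallest interaction p in each direction, 4 genes of opposite signs, and up to 4 members per list by smallest p. Others, Ttr among them, were chosen after their values were seen. Alternatives were another pseudocount, filters, quantile or median scaling, plain moderation, array weights, a replicate block, a choroid plexus covariate, equal weighting of backgrounds, 1 fit of all groups, and leaving out each mouse.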

Additional observations from a re-analysis of the deposited data

Results flagged for a closer look

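In all, 5 values among 52 sets of mice checked lay far from the rest of their group by Dixon's criterion. Chance passes it in about 1 of 20 groups. The choroid plexus marker score was 3.55 in compound mouse 1, against 1.08 to 1.27 in the other compound mice, and 1.98 in Hdac1 cKO mouse 5, against 0.95 to 1.15 in the other Hdac1 cKO mice. Mir682 was at 7.34 log2(FPKM + 1) in control mouse 1 and at 0 in the other control mice. Cd63 was at 9.01 log2(FPKM + 1) in 5XFAD mouse 3, against 8.20 to 8.43 in the other 5XFAD mice. Arhgap18 was at 1.37 log2(FPKM + 1) in Hdac1 cKO mouse 4, against 1.01 to 1.10 in the others. The choroid plexus score of control mouse 1 (1.62) was not past the criterion for 4 mice.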

How the results depend on the processing

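With a pseudocount of 0.1, 289 genes were lower and 70 higher by the main effect at the study thresholds, 329 passed in the 5XFAD background and 26 passed in both backgrounds in 1 direction. Array weights gave 5 genes and the mean of the 2 within-background effects gave 4 genes at an adjusted p of 0.05 for the main effect. The choroid plexus score as a covariate gave 64 lower and 64 higher genes at the study thresholds. It also turned the sign of 5 named main effects, to 0.11 for Kl, -0.0063 for Prkce, 0.16 for Prkcq, 0.031 for Slc4a5 and 0.16 for Ttr. Kl, Slc4a5 and Ttr are themselves members of the score, so the loss of their effects with it was fixed in advance. Without control mouse 1 and compound mouse 1, chosen after seeing the data, 105 genes passed the adjusted threshold and 236 were lower and 26 higher at the study thresholds. Leaving out 1 mouse at a time gave 2 to 5 genes at the adjusted threshold, 122 to 192 lower and 14 to 29 higher genes, 416 to 650 and 174 to 247 genes in the control and 5XFAD backgrounds, 11 to 67 genes in both, and interactions for 0 to 1 genes at the adjusted and 1057 to 1644 at the unadjusted threshold. The count of 67 was without compound mouse 1 and that of 650 without control mouse 1. The Hdac1 main effect lay between -1.53 and -1.40 when 1 mouse was left out and between -1.80 (pseudocount of 0.1) and -1.44 under the other alternatives. Same-numbered mice did not deviate together (27 pairs, r from -0.11 to 0.094, and 2 of 20 libraries closest to their own number), so the numbers were not taken as pairs. With the replicate number as a block, 2 genes passed the adjusted threshold, 127 were lower and 23 higher at the study thresholds, 15 passed in both backgrounds, Hdac1 was at -1.47, and none of the counts of calls given here moved by over 1.5 times.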
